A study of Mus musculus with 4 samples.

Results

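The acute phase secreted proteins led by Saa3 were followed in differentiated 3T3-F442A adipocytes, which derive from a line of mouse fat cell precursors. The genes were Saa3, Lcn2, Lbp, Hp, Orm1, Serpina3n, Serpina3g, Cp and Ptx3, and every probe set that the platform annotation assigns to exactly 1 of them was taken. This gave 14 probe sets for 8 of the 9 genes, out of 12393 genes represented on the array. No probe set was assigned to Serpina3g alone, and it is not analysed here. Cp has 7 probe sets and each other gene has 1. The genes were picked with this comparison in view, so their values below are a description, and counts of calls among them are tied to that choice.

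Total RNA was hybridised to 4 Affymetrix arrays, 2 from cells labelled shTRPV4, which stably carry a hairpin against the calcium-permeable channel gene Trpv4, and 2 from cells labelled shGFP, which carry a hairpin against GFP in its place. All cells were infected overnight as preadipocytes with a retrovirus expressing the hairpin and then kept in 2 ug/ml puromycin over 2 days for selection. All were differentiated at confluence with 850 nM insulin for 8 days, with rosiglitazone for the first 2. The labels name neither the number of hairpins per gene nor whether replicates were separate infections or cultures, so SEs and p-values cover only array-to-array spread, possibly of technical origin.

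The values are deposited linear intensities, without detection calls, and the number of arrays limits their precision. Differences are shTRPV4 minus shGFP on the quantile-normalized log2(intensity + 16) scale, given with the SE of limma, a linear model fitted over all 22626 probe sets. The added 16 shrinks differences of dim probe sets. A gene was called where its Benjamini-Hochberg adjusted p over all probe sets was under 0.05. Trpv4 itself read 80.1 and 79.5 in the arrays labelled shTRPV4, against 43.7 and 93.8 in the arrays labelled shGFP. Its difference was 0.32 (95% interval −0.55 to 1.19, limma adjusted p = 0.55), which leaves the knockdown unchecked here, and groups are therefore called by label. Adipocyte markers were bright on all arrays, with Adipoq, the adiponectin gene, at 13294 and 14169 in the shTRPV4-labelled arrays and 11785 and 11816 in the shGFP-labelled arrays.

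The acute phase response is the change in secreted plasma proteins that follows infection or injury. It is driven mainly by interleukin 6 acting through STAT3 and by interleukin 1 and tumour necrosis factor acting through NF-kappaB, with the C/EBP factors acting on many of the same promoters. The liver makes most of these proteins, and fat cells also secrete several of them, including haptoglobin, lipocalin 2 and, in mice, serum amyloid A3.

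The stretch just upstream of the transcription start was available for 5 of the 8 measured genes, in 6 windows, because Cp has 2 annotated starts. Each window was searched on both strands for the C/EBP motif TTGCNNAA, the STAT motif TTCNNNGAA and the NF-kappaB consensus. A C/EBP match was present in 1 window each of Saa3, Lcn2, Cp and Ptx3, and in 9.57% of the 32817 mouse windows of the same 250 bases. The window of Serpina3n and the first Cp window held no match. None of the 6 windows held a STAT or NF-kappaB match, motifs present in 7.01% and 7.25% of all windows. The 4 windows with a match are shown 5′ to 3′ on the strand of the gene, from RefSeq on GRCm38.p6, with the match in capitals. Lbp, Hp and Orm1 had no window. The 5 genes with a window, Serpina3n without a match among them, were all lower in the shTRPV4-labelled arrays. Whether a match goes with the direction of a difference therefore could not be read.
Saa3, chr7:46715677-46715926, minus strand: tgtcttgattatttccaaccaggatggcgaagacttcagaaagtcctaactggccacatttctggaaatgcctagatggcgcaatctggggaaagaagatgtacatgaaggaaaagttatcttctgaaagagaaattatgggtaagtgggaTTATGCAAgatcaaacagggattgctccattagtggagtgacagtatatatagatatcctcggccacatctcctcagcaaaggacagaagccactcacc
Lcn2, chr2:32387740-32387989, minus strand: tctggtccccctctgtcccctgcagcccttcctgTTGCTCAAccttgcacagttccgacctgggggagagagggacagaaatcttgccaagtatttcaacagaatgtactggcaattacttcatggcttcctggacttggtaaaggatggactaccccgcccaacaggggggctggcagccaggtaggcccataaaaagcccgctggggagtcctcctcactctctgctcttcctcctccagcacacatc
Cp, chr3:19956999-19957248, plus strand: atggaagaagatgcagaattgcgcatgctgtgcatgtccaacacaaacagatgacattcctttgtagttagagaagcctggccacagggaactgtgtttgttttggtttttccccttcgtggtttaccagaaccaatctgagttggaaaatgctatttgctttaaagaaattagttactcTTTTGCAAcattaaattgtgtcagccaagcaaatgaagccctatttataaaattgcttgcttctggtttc
Ptx3, chr3:66219637-66219886, plus strand: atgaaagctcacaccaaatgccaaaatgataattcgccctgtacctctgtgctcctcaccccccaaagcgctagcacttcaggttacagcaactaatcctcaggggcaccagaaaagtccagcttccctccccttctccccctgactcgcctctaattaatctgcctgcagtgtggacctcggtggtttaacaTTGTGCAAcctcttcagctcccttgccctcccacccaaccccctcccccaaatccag
Counted back from the start, the match covers bases 99 to 92 in Saa3, 216 to 209 in Lcn2, 70 to 63 in Cp and 57 to 50 in Ptx3. A match is a description of these letters and does not show that a factor binds there.

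Of the 14 probe sets, 13 were lower and 1 was higher in the arrays labelled shTRPV4, and in none of them did the groups overlap. Both shTRPV4-labelled arrays lay below both shGFP-labelled arrays for 13 of them, as for 30.3% of all probe sets, and above for 1, as for 26.2% of all. With limma, 12 were called lower and 0 higher, where 5.36% of all probe sets were called lower and 4.54% higher. At an unadjusted p under 0.05, 13 were lower and 1 higher, where 14.3% of all probe sets were lower and 16.3% higher. Since the members were chosen on this contrast, nothing is read from these counts. With any 1 of the 4 arrays left out, 0 of the 14 were called, as were 0 of all probe sets. The split of calls over the whole array depends on scaling, since 45.8% were higher after quantile normalization, 34.1% with the values as deposited and 59.3% with median centring. The median difference over the 14 probe sets was −0.91, beside 0.02 over all probe sets.

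**Figure D1:**
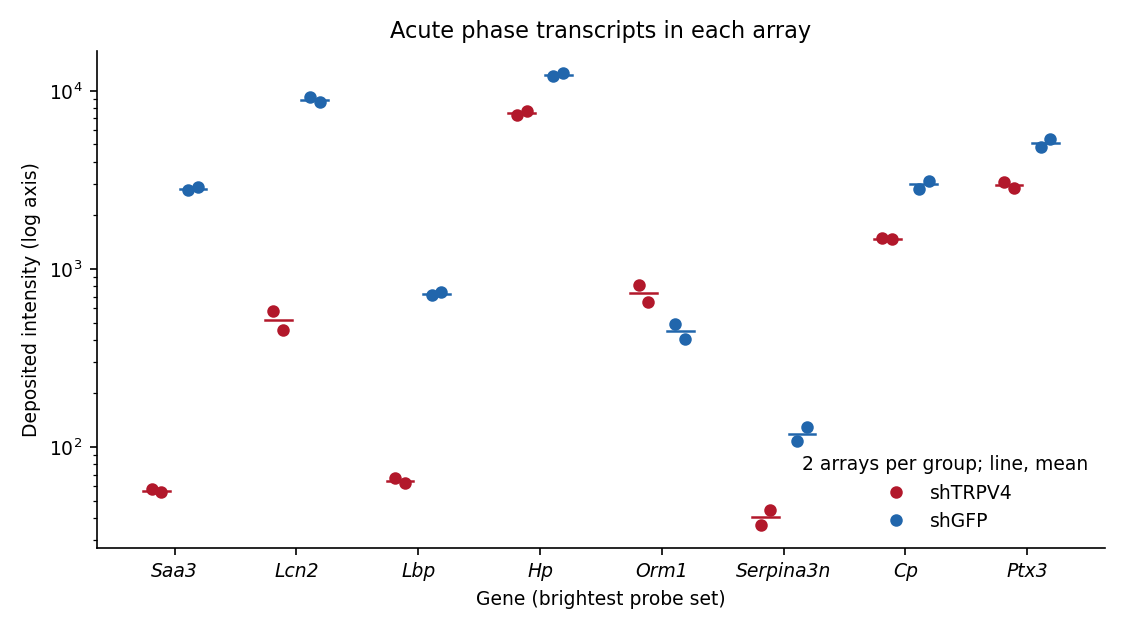
Deposited intensity on a log axis for the brightest probe set of each of the 8 genes, with 1 point per array and a line at the mean of the 2 arrays labelled shTRPV4 or shGFP. For Saa3, Lcn2 and Lbp the groups lie farthest apart, and Orm1 is the gene with shTRPV4-labelled arrays on top.

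Saa3 encodes serum amyloid A3, a small apolipoprotein of high-density lipoprotein that in mice is made largely outside the liver. Its probe set read 57.9 and 55.5 in the shTRPV4-labelled arrays, against 2778 and 2868 in the shGFP-labelled arrays. Arrays of 1 label differed by little beside the gap between labels. The shTRPV4 mean was 2.01% of the shGFP mean, 49.8-fold lower in deposited intensity and 38.2-fold lower on the log2(intensity + 16) scale (−5.26, SE 0.06). After quantile normalization both shGFP-labelled arrays held the same value for Saa3, so its SE rests mainly on the prior shared by all probe sets. A probe set with no spread within labels has an SE of 0.06 in this fit. Other SEs near 0.06 therefore also rest mainly on the prior. Of all 22626 probe sets Saa3 had the lowest difference, and it remained the lowest in all 12 settings tried. In these the difference of Saa3 ran from −5.58 with an offset of 1 to −4.56 with an offset of 64.

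Lcn2 and Orm1 encode lipocalins, small carriers of hydrophobic ligands, and the 2 differed in opposite directions. Lipocalin 2 binds bacterial siderophores and so withholds iron from microbes. Lcn2 read 577.9 and 452.7 in the shTRPV4-labelled arrays, against 9194 and 8669 in the shGFP-labelled arrays. The shTRPV4 mean was 5.77% of the shGFP mean, a difference of −4.10 (SE 0.16), rank 2 from the lowest on the array. The shTRPV4-labelled arrays differed from each other by 0.38, the widest gap between arrays of 1 label among the 14 probe sets. Orm1 encodes orosomucoid 1, an abundant plasma glycoprotein that carries basic drugs and modulates immune cells. It read 812.5 and 651.5 in the shTRPV4-labelled arrays, against 490.4 and 405.6 in the shGFP-labelled arrays. Its difference of 0.74 (SE 0.19) was not called (95% interval 0.20 to 1.27, limma adjusted p = 0.096). Arrays of 1 label lay 0.36 and 0.34 apart, and the closest arrays of unlike label 0.39 apart. With 1 array left out at a time the difference of Orm1 ran from 0.56 to 0.91. The Orm genes are near-identical copies whose transcripts a probe set can share, so the assignment to Orm1 is uncertain. The separate probe set of Orm2 read 44.1 and 30.4 in the shTRPV4-labelled arrays and 52.8 and 51.3 in the shGFP-labelled arrays, with a difference of the other sign that was not called (−0.31, 95% interval −0.73 to 0.10, adjusted p = 0.25).

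Lbp and Ptx3 encode proteins that recognise microbes in body fluids. Lbp encodes lipopolysaccharide-binding protein, which hands bacterial lipopolysaccharide to CD14. It read 66.9 and 62.5 in the shTRPV4-labelled arrays, against 714.6 and 737.9 in the shGFP-labelled arrays. The shTRPV4 mean was 8.91% of the shGFP mean (−3.14, SE 0.07), rank 4 from the lowest on the array. Ptx3 encodes the long pentraxin 3, which opsonises fungi and bacteria and is made by many cell types outside the liver. Its probe set read 3095 and 2847 in the shTRPV4-labelled arrays, against 4823 and 5403 in the shGFP-labelled arrays. At 58.1% of the shGFP mean, Ptx3 had a smaller difference than Lbp (−0.79, SE 0.10), with groups that did not overlap.

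Hp and Cp encode plasma proteins that handle heme iron and copper. Hp encodes haptoglobin, which captures free haemoglobin. It read 7295 and 7685 in the shTRPV4-labelled arrays, against 12117 and 12550 in the shGFP-labelled arrays. This is 60.7% of the shGFP mean, a difference of −0.79 (SE 0.06) that was −0.72 with the values as deposited and −0.62 with median centring. Cp encodes ceruloplasmin, a copper-carrying ferroxidase that oxidises iron leaving cells. Its brightest probe set, 1417494_a_at, read 1491 and 1463 in the shTRPV4-labelled arrays, against 2826 and 3138 in the shGFP-labelled arrays (−0.98, SE 0.08).

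The 7 Cp probe sets gave 7 readings of 1 gene, whose targets may overlap, so they are not replicates of the condition. For all 7, both shTRPV4-labelled arrays were lower than both shGFP-labelled arrays. The differences ran from −1.03 (1455393_at, SE 0.08) to −0.46 (1417497_at, SE 0.11), with a median of −0.89 and an SD of 0.19. As shares of the shGFP mean, the shTRPV4 means lay between 46.5% and 60.9%. The smallest difference belonged to the dimmest probe set, 1417497_at, which read 26.4 and 31.6 in the shTRPV4-labelled arrays and 43.6 and 51.7 in the shGFP-labelled arrays, near the offset of 16. With an offset of 1 its difference was −0.64, and with 64 it was −0.24. The other 6 lay between −1.03 and −0.84.

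Serpina3n encodes an inhibitor of serine proteases, 1 of a cluster of related genes in the mouse that correspond to the human gene of alpha-1-antichymotrypsin. It read 36.3 and 44.1 in the shTRPV4-labelled arrays, against 108.5 and 128.8 in the shGFP-labelled arrays. The shTRPV4 mean was 33.9% of the shGFP mean (−1.19, SE 0.12). As a dim probe set it depended on the offset, with −1.45 at an offset of 1 and −0.76 at 64. The related genes of the cluster could contribute to its signal.

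**Figure D2:**
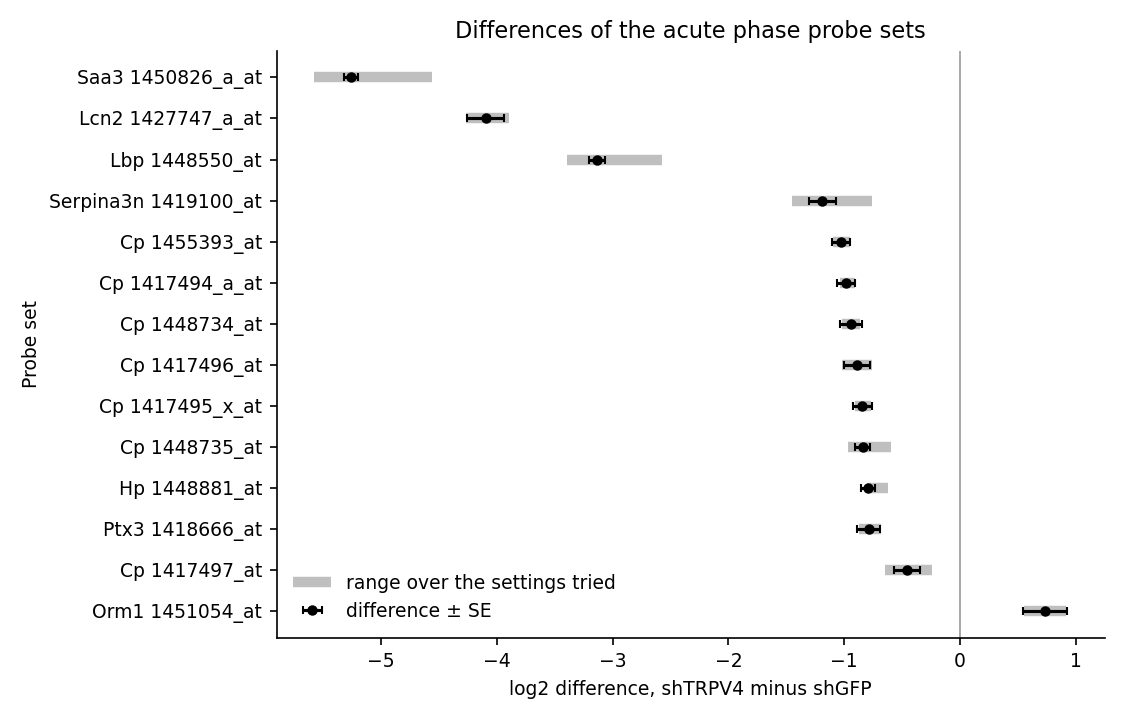
Difference of each of the 14 probe sets, shTRPV4 minus shGFP on the log2(intensity + 16) scale, with bars of 1 SE and grey bands for the range over the 12 settings tried. No band crosses 0, Saa3, Lcn2 and Lbp stand at −5.26, −4.10 and −3.14, and Orm1 is the single positive difference at 0.74.

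The size of the difference divided the 8 genes. Saa3, Lcn2 and Lbp had differences from −5.26 to −3.14 and held ranks 1, 2 and 4 from the lowest of 22626 probe sets. Serpina3n, Cp, Hp and Ptx3 lay between −1.19 and −0.79 and held ranks 228, 380, 598 and 601. All 7 of these genes lay under the 5th percentile of all probe sets, at −0.56. The members were chosen on this contrast, and these ranks only locate them in it. By mean level over the 4 arrays, Saa3, Lcn2 and Lbp stood at percentiles 69.3, 91.7 and 57.9 of all probe sets, Hp and Ptx3 at 98.9 and 95.9, and Serpina3n at 41.9.

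**Figure D3:**
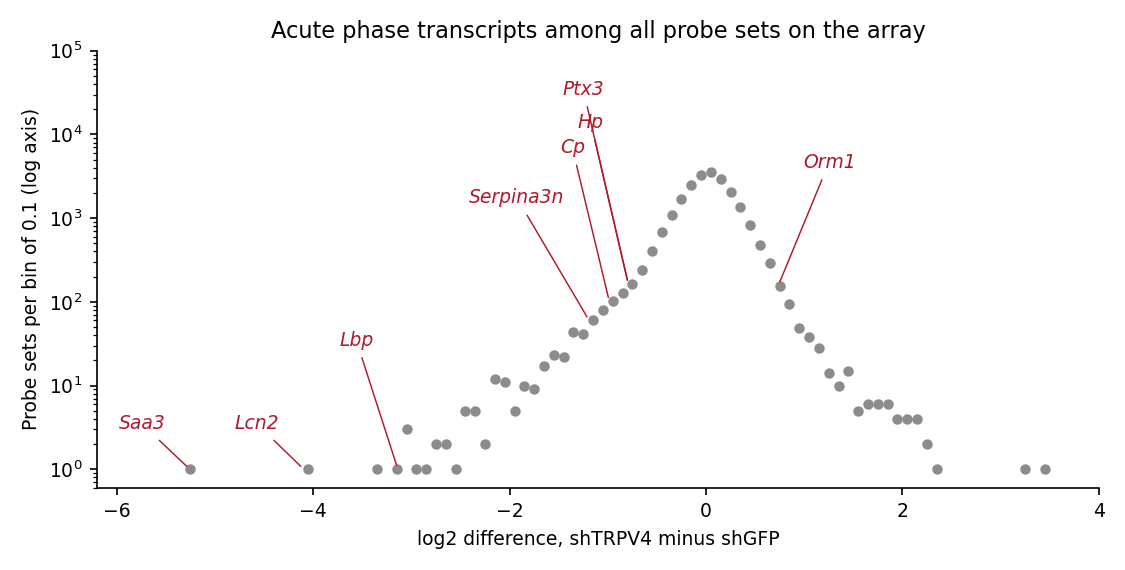
Number of probe sets in each bin of the log2 difference, shTRPV4 minus shGFP, on a log axis, with the brightest probe set of each of the 8 genes marked. Most probe sets lie near 0, Saa3 and Lcn2 lie below all others, and Orm1 lies on the right-hand slope.

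Genes most like Saa3 were ranked by Euclidean distance over the 4 arrays between normalized log2 values, each centred on its shGFP mean. Among the 8 genes Lcn2 was nearest (distance 1.66), followed by Lbp (3.00), and Orm1 was farthest (8.48). The 5 nearest of the other genes began with the chemokine genes Cxcl5 (3.08) and Cxcl10 (3.18). The rest were the oligoadenylate synthetase-like gene Oasl2 (3.20), the Toll-like receptor gene Tlr2 (3.20) and the antiviral gene Ifit1 (3.45). Only the brightest probe set of each gene with a single symbol entered this ranking, and the probe set at rank 3 from the lowest is unnamed here and was left out. Cxcl5 read 993.6 and 924.3 in the shTRPV4-labelled arrays, against 8511 and 7700 in the shGFP-labelled arrays. With 4 arrays in 2 groups, this distance mostly measures the size of the difference between the groups.

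The rest of the acute phase pathway was read from 6 lists with 98 entries, of which 77 had a representative probe set, the brightest of each gene. These lists and the marker lists below were drawn up with earlier results of these data known. Counts of calls in them are tied to that choice and are a description. Over the 77 genes, 21 fell and 5 rose with limma, beside 6% of all 12393 genes called lower and 5.33% called higher. With any 1 array left out, 0 were called. With an offset of 1, the calls of Cd14, Il6st, Il1r1, Cebpa, Nfkbia, Nr3c1, Itih4, Hpx, Agt, Saa1 and Saa2 were lost. A further probe set of Il1rn, Il6st, Lifr, Nr3c1, Saa1 and Steap4 had the same sign and was not called. In bulk RNA, fewer cells of a type and less RNA per cell cannot be told apart.

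Of 13 inducing cytokines and their receptors, 5 fell, 0 rose and 8 were not called (list median −0.46, against 0.02 over all genes). At an unadjusted p under 0.05, 8 were lower and 0 higher, where 15.2% of all genes were lower and 17.9% higher. Il6 encodes interleukin 6, the main inducer of the response. It read 26.8 and 32.6 in the shTRPV4-labelled arrays, against 274.7 and 274.4 in the shGFP-labelled arrays (−2.62, SE 0.10, adjusted p = 0.015). Il6st, the signal-transducing subunit gp130 shared by the receptors of this cytokine family, read 4752 and 4902 in the shTRPV4-labelled arrays, against 7176 and 7969 in the shGFP-labelled arrays, and fell by 0.68 (SE 0.07, adjusted p = 0.026). The receptor subunits that pair with gp130 for oncostatin M and leukaemia inhibitory factor also fell, Osmr by 0.99 (SE 0.07, adjusted p = 0.017) and Lifr by 0.84 (SE 0.06, adjusted p = 0.018). Averaging the probe sets of Lifr ended its call, at −0.64. Il1r1, the interleukin 1 receptor, fell by 0.46 (SE 0.07, adjusted p = 0.040), but was not called after median centring. The cytokine genes Il1b and Tnf were dim in both groups and not called, Il1b at 26.9 and 12.2 in the shTRPV4-labelled arrays and 36.0 and 20.2 in the shGFP-labelled arrays (−0.30, 95% interval −1.13 to 0.53), and Tnf with a difference of −0.40 (95% interval −0.82 to 0.01).

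Among 12 transcriptional regulators, 4 fell, 2 rose and 6 were not called (median −0.23). Socs3 encodes the feedback inhibitor of gp130 and STAT3 signalling, which STAT3 itself induces. It read 813.0 and 731.3 in the shTRPV4-labelled arrays, against 2390 and 2277 in the shGFP-labelled arrays (−1.54, SE 0.11, adjusted p = 0.017), and its other probe sets fell by 1.43 and 1.55. The Stat3 transcript was not called on the brightest of its 3 probe sets (−0.23, 95% interval −0.43 to −0.02, adjusted p = 0.14). That interval leaves out 0 before adjustment. The other Stat3 probe sets differed less, 1460700_at by −0.08 (95% interval −0.31 to 0.14) and 1424272_at by −0.07 (95% interval −0.37 to 0.23). The other 3 genes that fell belong to the NF-kappaB pathway. They were Nfkbiz, a nuclear cofactor that NF-kappaB needs for Lcn2 (−1.13, SE 0.07, adjusted p = 0.015), the inhibitor gene Nfkbia (−0.87, SE 0.10, adjusted p = 0.029) and the subunit gene Relb (−0.82, SE 0.07, adjusted p = 0.021). The other NF-kappaB subunit genes measured in the list were not called, Rela at 0.12 (95% interval −0.14 to 0.38) and Nfkb2 at −0.14 (95% interval −0.39 to 0.11).

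Cebpb, Cebpd and Cebpa encode factors that can bind the C/EBP motif, and their binding at the marked matches was not tested. Cebpb, the factor known for its role in acute phase transcription, read 6618 and 6427 in the shTRPV4-labelled arrays, against 7567 and 7231 in the shGFP-labelled arrays. It was not called (−0.24, 95% interval −0.45 to −0.03, limma adjusted p = 0.13). Its dimmer probe set, 1427844_a_at, had a larger difference that was not called either (−0.43, 95% interval −0.70 to −0.17, limma adjusted p = 0.071). Cebpd read 1403 and 1432 in the shTRPV4-labelled arrays and 1412 and 1481 in the shGFP-labelled arrays, with groups that overlapped and an interval from −0.17 to 0.17. Cebpa, which also drives adipocyte differentiation, rose by 0.88 (SE 0.09, adjusted p = 0.024), with 1427 and 1542 in the shTRPV4-labelled arrays and 844.4 and 790.0 in the shGFP-labelled arrays. The glucocorticoid receptor gene Nr3c1 rose by 0.58 (SE 0.06, adjusted p = 0.026). Glucocorticoids act together with interleukin 6 on acute phase genes in liver cells.

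Of 14 receptors and binding partners, 4 fell, 1 rose and 9 were not called (median 0.05). Cd14, whose protein receives lipopolysaccharide from the Lbp protein, read 242.1 and 204.4 in the shTRPV4-labelled arrays, against 460.8 and 469.8 in the shGFP-labelled arrays (−0.96, SE 0.12, adjusted p = 0.032). Tlr4, the signalling receptor, read 753.5 and 717.2 in the shTRPV4-labelled arrays, against 501.9 and 420.3 in the shGFP-labelled arrays, and its difference of 0.71 was not called (95% interval 0.31 to 1.10, adjusted p = 0.063), though it was with median centring, an offset of 64, the filter on dim probe sets and an intensity trend. Ly96, the co-receptor MD-2, had groups that overlapped (0.07, 95% interval −0.30 to 0.45). Tlr2 fell by 2.99 (SE 0.06, adjusted p = 0.015).

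Tnfaip6 encodes TSG-6, which binds pentraxin 3 in the matrix around the oocyte. It read 398.4 and 361.5 in the shTRPV4-labelled arrays, against 1048 and 1058 in the shGFP-labelled arrays (−1.39, SE 0.09, adjusted p = 0.016). Mmp9, the matrix protease that forms a complex with lipocalin 2, fell by 1.18 (SE 0.08, adjusted p = 0.017). Slc22a17, a receptor for lipocalin 2, was not called (0.41, 95% interval 0.12 to 0.71, adjusted p = 0.092). The 1 gene that rose was Slc40a1, which encodes ferroportin, the iron exporter that works with ceruloplasmin. It read 448.3 and 475.3 in the shTRPV4-labelled arrays, against 144.7 and 166.5 in the shGFP-labelled arrays (1.55, SE 0.08, adjusted p = 0.015), opposite in sign to Cp, and its second probe set rose by 0.78.

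Among 26 other acute phase proteins, 8 fell, 2 rose and 16 were not called (median −0.18). Steap4, a metalloreductase that tumour necrosis factor and interleukin 6 induce in fat cells, read 79.7 and 79.8 in the shTRPV4-labelled arrays, against 560.3 and 471.2 in the shGFP-labelled arrays (−2.41, SE 0.13, adjusted p = 0.015). The complement factor gene Cfb fell by 2.02 (SE 0.09), the interleukin 1 receptor antagonist gene Il1rn by 1.49 (SE 0.07), the calcium-binding protein gene S100a8 by 0.99 (SE 0.07) and the complement inhibitor gene Serping1 by 0.93 (SE 0.06), with adjusted p from 0.015 to 0.017. Saa1 read 8.76 and 12.6 in the shTRPV4-labelled arrays, against 38.6 and 42.9 in the shGFP-labelled arrays (−1.06, SE 0.11, adjusted p = 0.024), and Saa2 fell by 0.98 (SE 0.09, adjusted p = 0.023). By their suffixes, the probe sets of Saa1, Saa2 and S100a8 may also detect related transcripts, and a contribution from other genes was not tested. S100a8 read 1010 and 986.7 in the shTRPV4-labelled arrays, against 1958 and 2116 in the shGFP-labelled arrays, while S100a9 read at most 9.4 on the 4 arrays. Itih4 rose by 0.76 (SE 0.12, adjusted p = 0.044), but was not called on the deposited values. Chosen after their values were seen, Hpx, the heme-binding hemopexin gene, fell by 0.56 (SE 0.07, adjusted p = 0.031) and Agt, the angiotensinogen gene, rose by 0.67 (SE 0.11, adjusted p = 0.046).

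Crp, the C-reactive protein gene and a pentraxin like Ptx3, read 20.1 and 14.9 in the shTRPV4-labelled arrays and 19.9 and 14.6 in the shGFP-labelled arrays, and Orm3 lay between 1 and 2.07 on all 4 arrays. Of 20 other clade A serpin genes listed, 6 were measured, and none of these was called with limma (median −0.08). At an unadjusted p under 0.05, 1 was lower and 1 higher, and none of their readings exceeded 38.1. Serpina3a was the only measured gene of the Serpina3 cluster among them, so the other listed relatives of Serpina3n were not read. None of the 6 negative acute phase genes, whose proteins fall in plasma during the response, was called either (1 lower and 0 higher at an unadjusted p under 0.05), and their readings were at most 21.3. At such readings a difference may not be detectable, since the intensity that marks background is unknown.

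**Figure D4:**
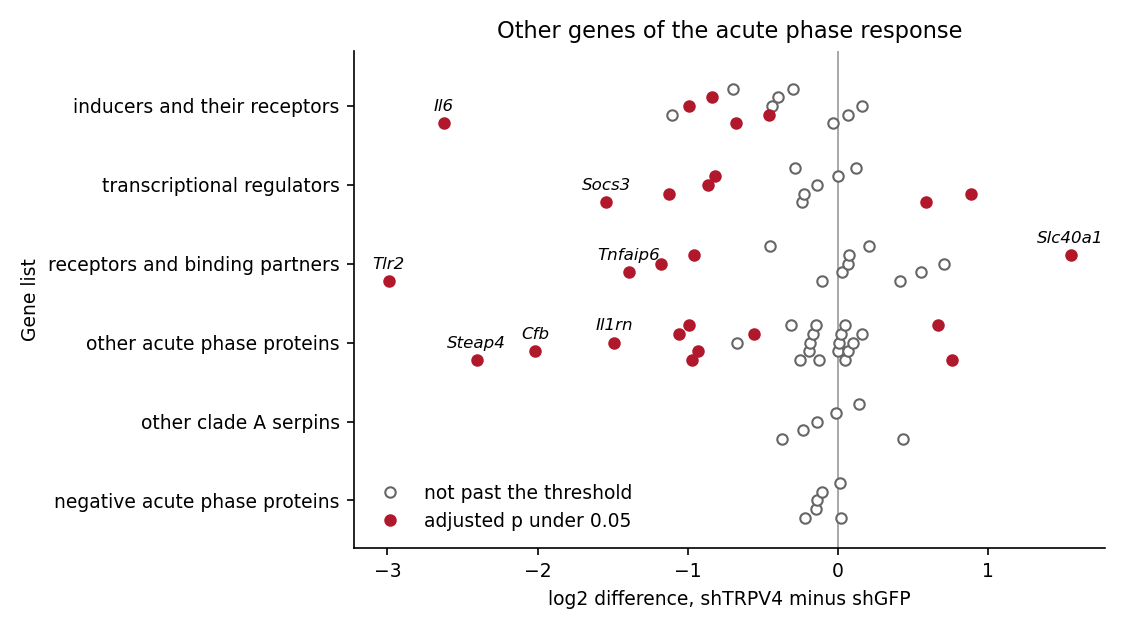
Log2 difference, shTRPV4 minus shGFP, of each measured gene of the 6 pathway lists, with filled points for genes called by limma at an adjusted p under 0.05 and open points for the rest. In each of the 4 lists with called genes most of them lie on the left, and Slc40a1 at 1.55 is the farthest to the right.

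Markers of other cells that make acute phase proteins were read in the same way, and their part in the differences was not tested. Of 10 hepatocyte markers, 0 were called with limma (2 lower and 2 higher at an unadjusted p under 0.05), no reading exceeded 117.8, and albumin lay between 5.30 and 16.1 on the 4 arrays. Lcn2 and Hp are also neutrophil granule genes. Of the neutrophil markers, Elane, Ngp and Ltf lay between 1 and 9.74 on all arrays, and Mpo between 18.2 and 21.5. Cxcr2 lay between 2.26 and 12.8 and Csf3r between 44.3 and 66.0, and neither was called. Of the 7 neutrophil markers measured, 1 fell, the cathelicidin gene Camp, at 176.8 and 144.2 in the shTRPV4-labelled arrays and 424.2 and 462.4 in the shGFP-labelled arrays. At an unadjusted p under 0.05, 1 neutrophil marker was lower and 0 higher. Of 14 macrophage markers, 2 fell, 2 rose and 10 were not called, beside 6% of all genes called lower and 5.33% called higher. At an unadjusted p under 0.05, 3 were lower and 4 higher, where 15.2% of all genes were lower and 17.9% higher. The summed intensities of the macrophage markers were 630.5 and 626.0 in the shTRPV4-labelled arrays and 655.0 and 755.6 in the shGFP-labelled arrays. The sums hold opposite moves. Lyz2, the lysozyme gene, read 63.8 and 42.8 in the shTRPV4-labelled arrays, against 234.8 and 271.0 in the shGFP-labelled arrays (−1.89, SE 0.18, adjusted p = 0.021), and Csf1r, the receptor of macrophage colony-stimulating factor, fell by 0.85 (SE 0.13, adjusted p = 0.042). Cd68, a lysosomal protein gene, read 154.0 and 182.3 in the shTRPV4-labelled arrays, against 41.1 and 66.7 in the shGFP-labelled arrays (1.49, SE 0.20, adjusted p = 0.035), and the chemokine receptor gene Cx3cr1 rose by 1.19 (SE 0.15, adjusted p = 0.033). The 10 others read between 1.13 (Fcgr1) and 94.0 (Adgre1) over the 4 arrays.

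Markers of differentiation moved with the group. The preadipocyte and fibroblast list had 12 measured genes, of which 7 fell, 0 rose and 5 were not called (median −0.81). Their summed intensities were 61117 and 61981 in the shTRPV4-labelled arrays and 73614 and 76430 in the shGFP-labelled arrays. Of 12 adipocyte markers 5 rose, 0 fell and 7 were not called (median 0.40). Their sums were 73157 and 76546 in the shTRPV4-labelled arrays and 63245 and 62515 in the shGFP-labelled arrays. Over all genes, limma called 6% lower and 5.33% higher. At an unadjusted p under 0.05, 8 preadipocyte and fibroblast genes were lower and 0 higher, and 0 adipocyte markers were lower and 8 higher. Of all genes, 15.2% were lower and 17.9% higher at that threshold. Cebpa is in both the adipocyte and the regulator list. Their part in the differences of the acute phase genes was not tested.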

How the data were processed

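Total RNA of 4 samples, 2 labelled shTRPV4 and 2 labelled shGFP, was measured on Affymetrix arrays with biotinylated cRNA, per the labels' protocols. The authors deposited 1 linear intensity per probe set and array. Their summarisation, background correction and scaling were not given in the sources used here. Array medians lay between 129.4 and 144.0, and spanned 0.14 after log2(intensity + 16), over the limit of 0.1 for use without normalization, so the values were quantile normalized. The fit used R 4.3.3 with limma 3.58.1 (functions lmFit and eBayes, no trend, 2 residual and 1.80 prior degrees of freedom) over 22626 probe sets. It was run on simulated data in which only probe sets above the median level were changed, by large differences. That run does not cover changes in dim probe sets or smaller changes.

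Genes were named from the platform annotation: 20380 probe sets had 1 symbol, 691 several and 1555 were unnamed here. Of the 98 entries of the pathway lists, 77 were measured. Named were all member probe sets, Trpv4, up to 8 called genes per pathway list with the largest differences, 18 fixed partners, and the 5 nearest to Saa3. The members and lists were chosen with earlier results of these data known. Alternatives were other normalizations, offsets of 1 and 64, a filter at the 25th percentile, an intensity trend, a replicate block, averaged probe sets and each array left out.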

Additional observations from a re-analysis of the deposited data

How the results depend on the processing

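No difference of the 14 acute phase probe sets changed sign under any of the 11 alternatives. The number of probe sets called higher and lower over the whole array was 1027 and 1213, and it was 180 and 426 with an offset of 1, 2130 and 1986 with an offset of 64, 2084 and 1975 without probe sets under the 25th percentile, and 2170 and 1980 with an intensity trend. Called higher were 600 with the values as deposited and 1662 with median centring. Of the 14 acute phase probe sets, 12 were called lower, and 7 with an offset of 1. None was called higher, and 1, Orm1, with the filter and with the trend. Of the pathway genes, 5 were called higher, 1 with an offset of 1 and 8 with the filter. The brightest probe sets of Stat3 and Cebpb were called lower with the intensity trend, and Slc22a17 was called higher with the filter.

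Leaving out any 1 array (shTRPV4 replicate 1 or 2, shGFP replicate 1 or 2) or adding the replicate block left 0 calls with limma in each of these counts, over the array, the members and the pathway. Such fits keep 1 residual degree of freedom, and 4543 to 6858 probe sets had an unadjusted p under 0.05. The replicate numbers are not known to pair the samples, and deviations of same-numbered arrays correlated at 0.12 over probe sets. No other tool was run. Without detection calls, differences of probe sets near the offset are limited by an unknown background.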
